A study of Mus musculus with 30 samples.

Results

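The 7 genes described here keep zinc and related metals in balance in mouse cells: the metallothionein genes Mt1 and Mt2, the metal sensor gene Mtf1, the zinc exporter gene Slc30a1 and the zinc importer genes Slc39a8, Slc39a10 and Slc39a14. They were chosen by name, with earlier results of these libraries known, those at 12 days above all, so the difference between quizalofop-p-ethyl (QpE) cultures and controls at 12 days is given for them as values, with no test. They are 7 of the 53350 genes with a name in the table. All 7 reached 1 FPKM in at least 5 libraries and are among the 12744 genes tested. FPKM are fragments per length of transcript and per size of library, so levels can be set side by side between genes.

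The samples were 30 cultures of the mouse line 3T3-L1, fibroblasts that can be turned into adipocytes; the differentiation medium held insulin and 3-isobutyl-1-methylxanthine in every group. QpE, the ethyl ester of a grass herbicide, was given at 50 µM for 6 h, 24 h or 12 days, and control cultures were taken at the same times, with 5 cultures in each of the 6 groups. The labels number the cultures of a group 1 to 5 and do not say what makes cultures separate, so p-values measure the spread between these samples. The protocol text describes a shorter course of medium changes than the 12 day label, and the time is given here as labelled. All samples come from a single cell line, and whether controls received a solvent is not stated in the labels.

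Metallothioneins are small cysteine-rich proteins that bind zinc, copper and cadmium. In mammalian cells free zinc is sensed by the transcription factor encoded by Mtf1, which binds metal response elements in the promoters of metallothionein genes and of Slc30a1, whose product (ZnT1) carries zinc out across the plasma membrane. The ZIP family members encoded by Slc39a8, Slc39a10 and Slc39a14 carry zinc into the cytosol, and the products of Slc39a8 and Slc39a14 also carry manganese. Metallothionein genes, in fat cells as elsewhere, are known to respond to zinc and to glucocorticoids.

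Mt2 lies on the plus strand of chromosome 8 at 94172664 to 94173568 of GRCm38, and Mt1 lies 5513 bases farther along the same strand, at 94179082 to 94180327. The start site regions of Mt2, Mt1 and Slc30a1 are shown because these are the members whose RefSeq windows held more than 1 copy of the core of the metal response element. Each window runs from 250 bases before to 50 bases after the RefSeq start (GRCm38.p6), at chr8:94172368-94172667 for Mt2, chr8:94178839-94179138 for Mt1 and chr1:191906531-191906830 for Slc30a1, all on the plus strand. Capitals mark each match to TGCACNC or TGCGCNC on either strand.
Mt2: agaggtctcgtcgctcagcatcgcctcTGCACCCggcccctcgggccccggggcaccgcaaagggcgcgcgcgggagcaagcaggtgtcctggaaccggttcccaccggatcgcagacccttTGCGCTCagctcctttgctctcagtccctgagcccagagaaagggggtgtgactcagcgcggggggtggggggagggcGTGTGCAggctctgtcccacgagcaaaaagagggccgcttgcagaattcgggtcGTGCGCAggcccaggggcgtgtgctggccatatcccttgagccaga
Mt1: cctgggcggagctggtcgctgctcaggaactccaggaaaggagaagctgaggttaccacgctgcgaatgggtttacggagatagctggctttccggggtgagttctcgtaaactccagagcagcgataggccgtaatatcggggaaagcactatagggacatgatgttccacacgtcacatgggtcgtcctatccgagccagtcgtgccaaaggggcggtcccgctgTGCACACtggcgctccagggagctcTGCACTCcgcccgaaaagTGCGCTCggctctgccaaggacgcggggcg
Slc30a1: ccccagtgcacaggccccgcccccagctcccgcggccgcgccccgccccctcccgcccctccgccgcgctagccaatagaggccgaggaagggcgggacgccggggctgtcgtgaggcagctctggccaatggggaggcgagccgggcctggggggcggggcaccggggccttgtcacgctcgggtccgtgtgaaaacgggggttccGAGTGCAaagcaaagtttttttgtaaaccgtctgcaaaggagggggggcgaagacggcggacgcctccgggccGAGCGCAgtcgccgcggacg

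The Mt2 window held 4 matches, of which those at -223 and -128 read along the gene and those at -50 and 5 read on the opposite strand. The Mt1 window held 3 matches along the gene, at -23, 3 and 21, and the Slc30a1 window held 2 on the opposite strand, at -43 and 31. Positions count from the RefSeq start, and no matches overlapped. The RefSeq starts differ from the gene starts given by the annotation used for positions. For Mt2 that gene start (94172664) lies near the end of the window (94172667), and all 4 matches lie before it. A second start of Slc39a8 had 1 match, and the windows of Mtf1 and both starts of Slc39a10 had 0, which says only that these letters are not in those windows. Slc39a14 had no window in the table, so 6 of the 7 members were matched. Of 32544 RefSeq windows of this length, 25.9% held at least 1 match, 7.17% at least 2, 1.99% at least 3 and 0.522% at least 4.

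Estimated depth was about 9.58 to 17.58 fragments per library in units of 1e+06, from the steps between low FPKM values. Libraries of a group correlated with r of 0.912 to 0.956 across genes. The 10 adipocyte markers, which include Adipoq, Fabp4 and Plin1, summed to 3303 to 7574 FPKM in QpE cultures and 941 to 5454 FPKM in controls at 12 days, against 105 to 244 FPKM in all cultures at 6 h. Lep alone of them stayed under 0.1 FPKM in every library at 6 h. At 12 days the adipocyte markers did not all go the way of their sum. Median Adipoq was 587 FPKM with QpE and 821 FPKM in controls, Plin1 125 and 136 FPKM, and Lep 0.0131 and 0.338 FPKM. The other adipocyte markers had higher medians with QpE, among them Fabp4 (2883 and 1865 FPKM) and Cfd (1508 and 740 FPKM). The 4 macrophage markers summed to at most 5.35 FPKM in any library, with Ptprc and Adgre1 under 0.1 FPKM throughout, and the 4 endothelial markers to at most 0.623 FPKM. Certain 12 day libraries stood apart. Cultures 3 and 4 had the lowest adipocyte sums of their groups (3303 and 3331 FPKM with QpE, 1117 and 941 FPKM in controls), and QpE culture 5 had a fibroblast marker sum of 324 FPKM, against 1592 to 2121 FPKM in the other QpE cultures and 4806 to 5671 FPKM in controls. The member differences at 12 days are therefore also given without QpE culture 5 and within each set of cultures. Fibroblast sums set cultures 3 and 4 apart earlier as well. At 6 h they stood at 3430 and 3673 FPKM with QpE and 3717 and 3339 FPKM in controls, against 4758 to 5424 FPKM in the other 6 h libraries. At 24 h they stood at 3917 and 3796 FPKM with QpE and 5785 and 4858 FPKM in controls, against 5415 to 5707 FPKM in the other QpE cultures and 6365 to 6836 FPKM in the other controls. Of the 6 fibroblast markers in the sum, Col3a1 had the widest FPKM range at 6 h, at 1458 to 2860 with QpE and 1375 to 2777 in controls. Dcn ranged from 973 to 1189 FPKM and from 986 to 1258 FPKM, and Thy1 from 277 to 304 FPKM and from 274 to 303 FPKM. In bulk RNA, fewer cells of a type and less RNA per cell cannot be told apart.

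Both metallothionein genes were higher in every QpE culture than in any control culture at 12 days. Mt2, which encodes metallothionein 2, stood at 107, 65.2, 157, 126 and 564 FPKM in QpE cultures 1 to 5. Mt2 in control cultures 1 to 5 stood at 8.67, 8.28, 61.7, 56.96 and 10.95 FPKM. The groups did not overlap, but the lowest QpE culture (65.2 FPKM, culture 2) lay just above the highest control (61.7 FPKM, culture 3). These values leave out an assembled transcript with no gene name at the Mt2 locus. With it QpE culture 2 would stand at 196 FPKM, and the lowest QpE culture would be culture 1 at 107 FPKM. Mt2 averaged 204 ± 204 FPKM in QpE cultures and 29.3 ± 27.5 FPKM in controls (SD, n = 5 each), and the difference of mean log2(FPKM + 1) was 2.87, with a pooled SD of 1.29.

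Mt1, the gene of metallothionein 1, stood at 206, 363, 301, 306 and 884 FPKM in QpE cultures 1 to 5 at 12 days. Controls 1 to 5 had 52.1, 46.98, 193, 168 and 56.1 FPKM. QpE culture 5 was again the highest and control cultures 3 and 4 were again far above the other controls, and the groups did not overlap. Mt1 averaged 412 ± 270 FPKM in QpE cultures and 103 ± 71.4 FPKM in controls (SD, n = 5 each), a difference of 2.07 on the log2(FPKM + 1) scale with a pooled SD of 0.89. Thus 2 of the 7 members lay above the controls without overlap. Among all 12744 genes 5.67% did so, and since the members were chosen on this contrast nothing is read from their count.

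**Figure D1:**
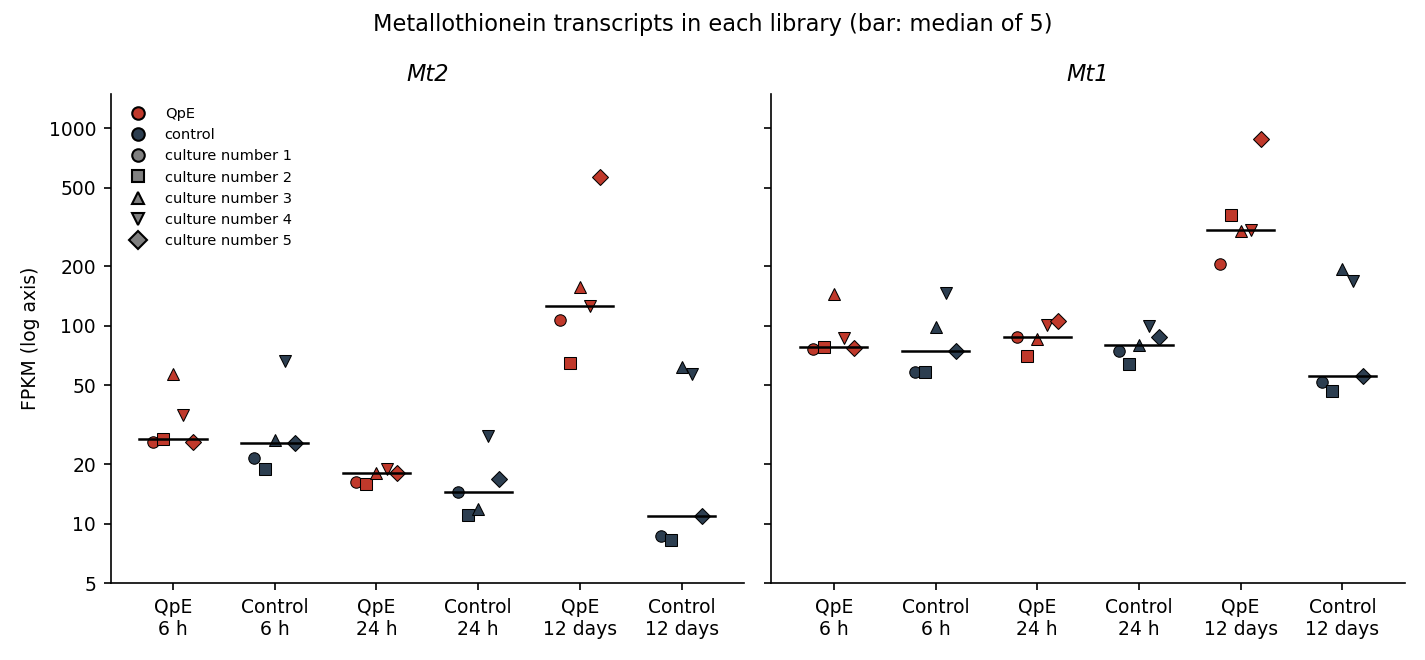
FPKM of Mt2 (left) and Mt1 (right) in each of the 30 libraries on a log axis, by group, with red for QpE, dark for control, a symbol for each culture number and a bar at the median of 5. At 12 days the 5 QpE libraries sit at 65.2 to 564 FPKM for Mt2 and 206 to 884 FPKM for Mt1, above the controls at 8.28 to 61.7 and 46.98 to 193 FPKM. Transcripts with no gene name are left out.

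Together Mt1 and Mt2 made up 0.0699% to 0.309% of all FPKM in QpE libraries and 0.0127% to 0.0568% in control libraries at 12 days. At the earlier times they made up 0.0176% to 0.0488% in all 20 libraries. The 12 day controls thus spanned both sides of the earlier range, with cultures 3 and 4 above it and cultures 1, 2 and 5 below it.

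The labels do not say whether QpE and control cultures of the same number are related. At 12 days deviations from the group means were correlated between QpE and control libraries of the same number (r of 0.154 to 0.315). Only 2 of 5 correlated best with their own number, so a pairing is not established and the ratios by number are a description. Mt2 FPKM in QpE cultures was 12.4, 7.87, 2.54, 2.22 and 51.5 times that of the control culture of the same number, for cultures 1 to 5. The Mt1 ratios were 3.94, 7.72, 1.56, 1.82 and 15.8. Since the groups did not overlap, every pair would have more of both RNAs with QpE however the cultures were numbered. The ratios were smallest in cultures 3 and 4, where the controls were high.

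Within cultures 1, 2 and 5 the log2 difference between QpE and control was 3.96 for Mt2 and 2.95 for Mt1. Within cultures 3 and 4 it was 1.23 for Mt2 and 0.75 for Mt1. In QpE libraries Mt2 stood at 126 to 157 FPKM in cultures 3 and 4, inside the wide range of 65.2 to 564 FPKM in cultures 1, 2 and 5. In controls it had mean log2 values of 5.91 in cultures 3 and 4 and 3.36 in cultures 1, 2 and 5, and their ranges did not overlap. The controls with high metallothionein RNA were thus those with adipocyte sums of 1117 and 941 FPKM, against 4289 to 5454 FPKM in the other controls. The part of differentiation state in the difference was not tested. Without QpE culture 5 the difference was 2.40 for Mt2 and 1.74 for Mt1.

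**Figure D2:**
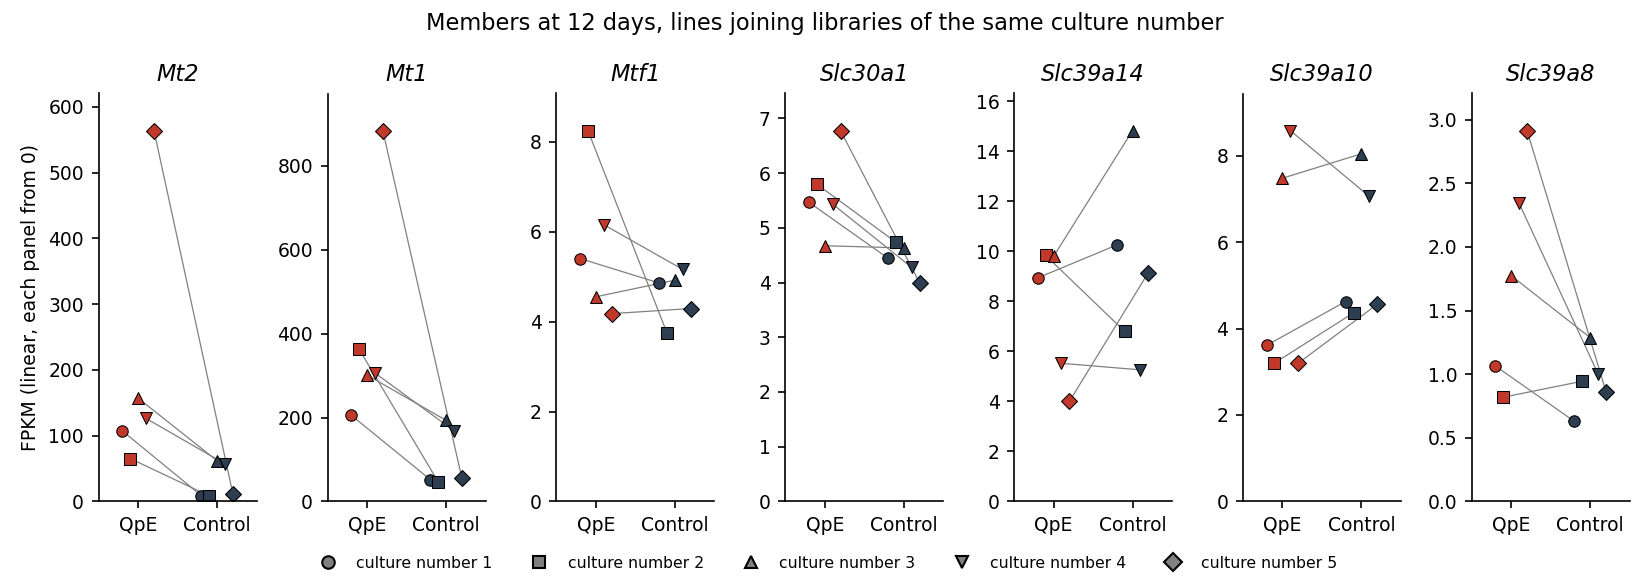
FPKM of the 7 members at 12 days on linear axes that each start at 0, with QpE left of control in each panel, a symbol for each culture number and a line joining libraries of the same number. All 5 lines slope down to the control for Mt2, Mt1 and Slc30a1, while those of the other genes cross.

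The FPKM of Mt1 were divided between transcripts in a way that did not follow the groups. Mt1 has 3 annotated transcripts in the table, the fully spliced form of 3 exons (ENSMUST00000034215) and 2 forms that keep 1 or both introns (ENSMUST00000212291 and ENSMUST00000211807). The intron-keeping forms held 62.9%, 0.343%, 54.96%, 0.517% and 69.0% of Mt1 FPKM in QpE cultures 1 to 5 at 12 days. Among controls 1 to 5 the shares were 0.537%, 38.5%, 0.399%, 54.5% and 0.653%. Libraries therefore had either over a 5% share or about 1% and less, in both groups.

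The same split appeared earlier, with 36.1% in QpE culture 4 at 24 h and 42.5% in control culture 1 at 6 h, and at most 1.03% in the other 18 libraries of those times. The spliced form alone stood at 76.2, 362, 136, 305 and 274 FPKM in QpE cultures and 51.8, 28.9, 193, 76.6 and 55.7 FPKM in control cultures 1 to 5 at 12 days, and on it alone the groups overlapped.

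**Figure D3:**
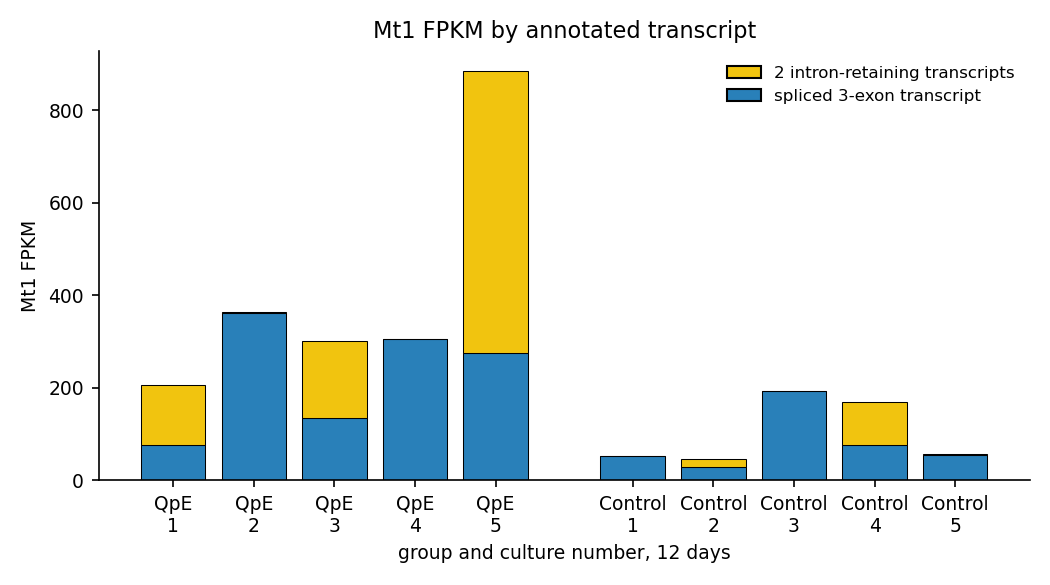
Mt1 FPKM at 12 days as stacked bars, 1 per library, with the spliced transcript of 3 exons at the bottom and the 2 intron-retaining transcripts on top, QpE libraries left of controls. QpE libraries 1, 3 and 5 and control libraries 2 and 4 carry a large upper part, of 38.5% to 69.0%, and the other 5 carry almost none.

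Mt2 was carried by a single spliced transcript (ENSMUST00000034214), which held at least 99.45% of its named FPKM in every library. An assembled transcript with no gene name covered the same locus and stood at 131 FPKM in QpE culture 2 at 12 days, at 0.2 FPKM in control culture 3 and at 0 in the other 8 libraries of that time. The values above leave it out, and with it Mt2 in QpE culture 2 would be 196 FPKM. An antisense gene, Gm45774, overlaps 749 of the 905 bases of Mt2. It stood at 0.0771, 11.5, 4.75, 9.17 and 15.04 FPKM in QpE cultures 1 to 5 and at 0.365, 0.327, 0.0331, 4.52 and 0.311 FPKM in control cultures 1 to 5. The library kit was directional, but whether strand was used in quantification is not given in the sources used here; without strand the reads of the pair cannot be told apart, and the part of this in the Mt2 values was not tested.

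The ratio of Mt1 to Mt2 differed between times, and at 12 days it was lower in 4 of 5 QpE cultures than in any control. Mt1 was 1.92, 5.56, 1.92, 2.43 and 1.57 times as abundant as Mt2 per length in QpE cultures 1 to 5 at 12 days. Among controls 1 to 5 it was 6.01, 5.67, 3.13, 2.96 and 5.12 times as abundant. QpE culture 2 was the exception among QpE libraries, and with the unnamed Mt2 transcript counted its ratio was 1.85, so that the QpE range of 1.57 to 2.43 lay below the control range of 2.96 to 6.01. At 6 h the ratio ranged from 2.48 to 2.99 in QpE cultures and from 2.19 to 3.76 in controls. At 24 h it ranged from 4.45 to 5.91 in QpE cultures and from 3.62 to 6.80 in controls. These ratios are a description, with no test.

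**Figure D4:**
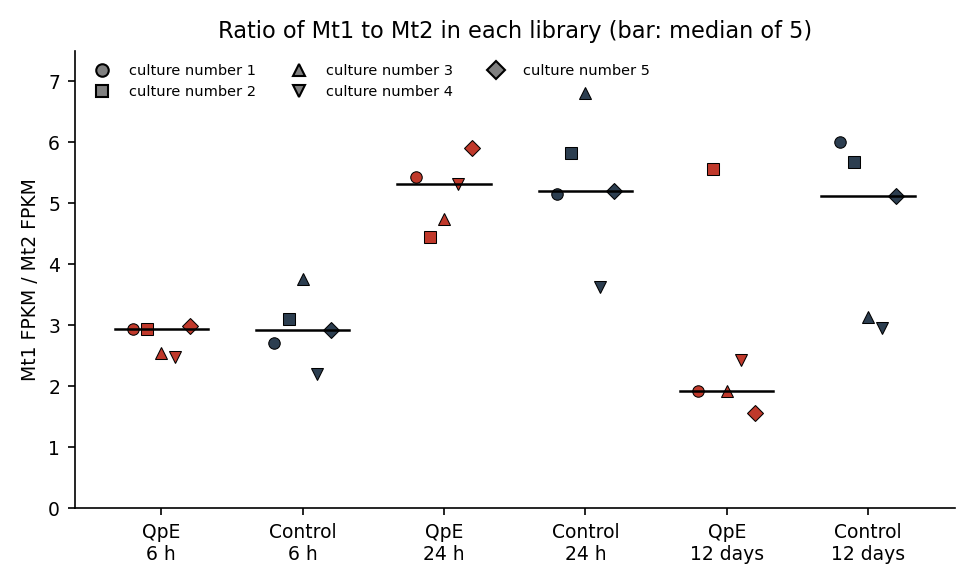
Mt1 FPKM divided by Mt2 FPKM in each library, by group and culture number, with a bar at the median of 5. Group medians are 2.94 with QpE and 2.92 in controls at 6 h, 5.31 with QpE and 5.19 in controls at 24 h, and 1.92 with QpE and 5.12 in controls at 12 days.

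Mtf1, the gene of the sensor itself (chromosome 4, 124802104 to 124849800), was low and nearly level in all groups. It stood at 5.40, 8.25, 4.55, 6.16 and 4.18 FPKM in QpE cultures 1 to 5 at 12 days, and at 4.86, 3.75, 4.92, 5.16 and 4.29 FPKM in control cultures 1 to 5. The groups overlapped, with 3 of 5 pairs higher with QpE and a log2 difference of 0.24 (pooled SD 0.26), which was 0.35 within cultures 1, 2 and 5 and 0.06 within cultures 3 and 4. Without QpE culture 2, the highest library, it was 0.11, and without QpE culture 5 it was 0.32. Its FPKM moved between annotated transcripts, and on the transcript most abundant over all libraries (ENSMUST00000030723), listed at 0 in QpE cultures 2 and 4, the difference was -0.80.

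Slc30a1, the exporter gene (chromosome 1, 191906767 to 191913247), stood at 5.47, 5.80, 4.67, 5.43 and 6.78 FPKM in QpE cultures 1 to 5 at 12 days. Its control cultures 1 to 5 stood at 4.45, 4.74, 4.63, 4.28 and 4.00 FPKM. QpE was higher in 5 of 5 pairs, with a single QpE culture, number 3, inside the control range. The log2 difference was 0.29 with a pooled SD of 0.13, and it was 0.15 within cultures 3 and 4 alone, 0.38 within cultures 1, 2 and 5 and 0.23 without QpE culture 5.

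The importer genes did not share a direction at 12 days. Slc39a14 (chromosome 14, 70303469 to 70351425, minus strand), whose product ZIP14 also carries iron not bound to transferrin, stood at 8.93, 9.83, 9.79, 5.52 and 3.99 FPKM in QpE cultures 1 to 5. Controls 1 to 5 stood at 10.2, 6.80, 14.8, 5.26 and 9.15 FPKM, overlapping widely, and the log2 difference was -0.24 (pooled SD 0.51). Within cultures 1, 2 and 5 and within cultures 3 and 4 it was -0.24 and -0.25, and leaving out single libraries it ran from -0.40 without control culture 4 to -0.06 without QpE culture 5. Slc39a10 (chromosome 1, 46807544 to 46892852, minus strand), the gene of ZIP10, stood at 3.61, 3.20, 7.48, 8.58 and 3.20 FPKM in QpE cultures and 4.62, 4.36, 8.04, 7.06 and 4.56 FPKM in control cultures 1 to 5. It followed the culture number more than the treatment, with cultures 3 and 4 high in both groups and a log2 difference of -0.18 (pooled SD 0.48), which was 0.08 within cultures 3 and 4 and -0.35 within cultures 1, 2 and 5. Leaving out single libraries it ran from -0.36 without QpE culture 4 to -0.06 without QpE culture 5.

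Slc39a8 (chromosome 3, 135825279 to 135888572), the gene of ZIP8, was the least abundant member. It stood at 1.06, 0.819, 1.77, 2.34 and 2.91 FPKM in QpE cultures 1 to 5 at 12 days. In control cultures 1 to 5 it stood at 0.629, 0.945, 1.29, 1.00 and 0.862 FPKM. QpE was higher in 4 of 5 pairs, the groups overlapped, and the log2 difference was 0.47 (pooled SD 0.35), or 0.33 without QpE culture 5, 0.44 within cultures 1, 2 and 5 and 0.51 within cultures 3 and 4. At about 1 FPKM the added pseudocount of 1 shrinks such differences.

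At 6 h and 24 h the question was whether QpE changed these genes early. The members were chosen with results of all 6 groups known, so the tests at these times are not independent of that choice. None of the 7 was called at either time by limma with Benjamini-Hochberg adjustment over 12744 genes, at an adjusted p under 0.05. At an unadjusted p under 0.05 there was 1 of the 7 at 6 h, Slc39a8, and 0 at 24 h. At 6 h the background was also empty, with 0% of all genes called and 372 genes at an unadjusted p under 0.05. At 24 h 0.00785% of all genes were called, which is 1 gene (the DNA repair gene Alkbh2, -1.60 on the log2 scale, adjusted p = 0.0114), and 1022 had an unadjusted p under 0.05. The control libraries of each time serve a single QpE group, and no sample is shared between the 2 times.

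Mt2 stood at 26.03, 26.8, 56.8, 35.3 and 25.9 FPKM in QpE cultures 1 to 5 at 6 h, against 21.5, 18.9, 26.4, 66.7 and 25.5 FPKM in control cultures 1 to 5. Its log2 difference was 0.19 ± 0.34 (SE), with a 95% interval of -0.57 to 0.95 (limma, adjusted p = 0.9999). QpE culture 3 and control culture 4, both of the set with low fibroblast sums, lay above the rest, and the groups overlapped. The difference was -0.0064 without QpE culture 3 and 0.49 without control culture 4.

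Mt1 followed the same cultures at 6 h. It stood at 76.6, 78.7, 144, 87.4 and 77.6 FPKM in QpE cultures 1 to 5 and at 58.2, 58.5, 99.2, 146 and 74.4 FPKM in control cultures 1 to 5. Its log2 difference was 0.13 ± 0.27 (SE), with an interval of -0.47 to 0.74. Control culture 4 was the highest library of either group.

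At 24 h Mt2 stood at 16.2, 15.9, 18.1, 19.01 and 17.96 FPKM in QpE cultures 1 to 5, a narrow range inside that of controls. Control cultures 1 to 5 had 14.5, 11.1, 11.8, 27.7 and 16.9 FPKM. The log2 difference was 0.16 ± 0.21 (SE), with an interval of -0.31 to 0.62 (limma, adjusted p = 0.862). Mt1 at 24 h stood at 88.1, 70.7, 86.0, 101 and 106 FPKM in QpE cultures and 74.6, 64.6, 80.5, 100.2 and 87.9 FPKM in control cultures 1 to 5. Its log2 difference was 0.15 ± 0.14 (SE), with an interval of -0.15 to 0.45 (limma, adjusted p = 0.792).

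Slc39a8 had the largest early difference of the 7 against its error. At 6 h it stood at 0.860, 0.720, 0.530, 1.03 and 0.759 FPKM in QpE cultures 1 to 5 and at 1.60, 1.05, 1.23, 0.895 and 1.40 FPKM in control cultures 1 to 5. In 4 of 5 QpE cultures it lay below the lowest control. The log2 difference was -0.33 ± 0.12 (SE), with a 95% interval of -0.58 to -0.07, and did not pass the test (limma, adjusted p = 0.9999; unadjusted p = 0.0186). At 24 h its difference was 0.13 ± 0.12 (SE).

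The other 4 members gave small values at both times. Mtf1 differed by -0.06 ± 0.14 at 6 h and -0.06 ± 0.15 at 24 h (log2 difference ± SE). Slc30a1 differed by 0.08 ± 0.10 and 0.07 ± 0.09, Slc39a10 by -0.05 ± 0.15 and -0.12 ± 0.09, and Slc39a14 by -0.03 ± 0.22 and 0.21 ± 0.26. The median difference over the 7 members was -0.03 at 6 h and 0.13 at 24 h, beside -0.01 and 0.01 over all genes tested.

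**Figure D5:**
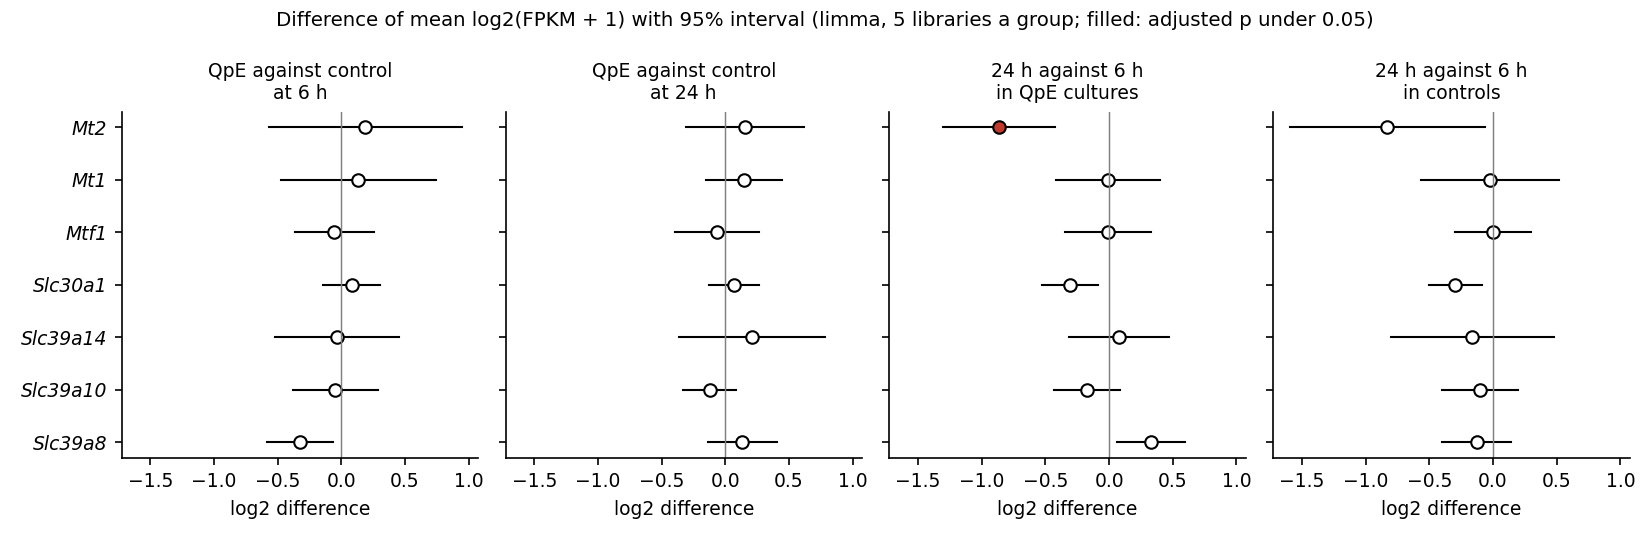
Difference of mean log2(FPKM + 1) for the 7 members, as points with 95% intervals, in the 4 comparisons that were tested. Only Mt2 at 24 h against 6 h in QpE cultures, at -0.87, is filled for an adjusted p under 0.05.

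Between 6 h and 24 h Mt2 fell in QpE cultures. All 5 cultures at 24 h (15.9 to 19.01 FPKM) lay below all 5 at 6 h (25.9 to 56.8 FPKM), and Mt2 fell by 0.87 on the log2 scale (SE 0.20; limma, adjusted p = 0.0137). The members were chosen with results of both times known, so tests of members between 24 h and 6 h are not independent of that choice. In this comparison 8.79% of all genes were called lower, 18.8% were called in either direction and 8.50% were lower without overlap. The call was lost with all 30 libraries in 1 fit (adjusted p = 0.273) and with cultures 3 and 4 alone (adjusted p = 0.0992). With cultures 1, 2 and 5 alone the difference was -0.62 (adjusted p = 0.0112).

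In controls over the same interval Mt2 differed by -0.83 ± 0.34 on the log2 scale (SE), which did not pass the test (limma, adjusted p = 0.128), and 17.8% of all genes were called. Control culture 4 was the highest control at both times, at 27.7 FPKM at 24 h and 66.7 FPKM at 6 h, and the times overlapped. Whether the change with time differed between QpE cultures and controls was not tested.

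Mt1 gave differences near 0 over this interval, and the difference between the 2 genes was not tested. Its log2 difference between 24 h and 6 h was -0.01 ± 0.18 in QpE cultures and -0.02 ± 0.24 in controls (SE), with intervals of -0.41 to 0.40 and -0.56 to 0.52. Between 24 h and 6 h Slc30a1 differed by -0.31 ± 0.10 in QpE cultures (adjusted p = 0.0538) and by -0.30 ± 0.09 in controls (adjusted p = 0.0553), both just short of the limma threshold. It averaged 3.44 FPKM at 24 h and 4.49 FPKM at 6 h with QpE, and 3.22 FPKM at 24 h and 4.19 FPKM at 6 h in controls. It passed with all 30 libraries in 1 fit (adjusted p = 0.0182 in QpE cultures and 0.0286 in controls), in QpE cultures without 6 h culture 5 (adjusted p = 0.0341) and in controls without 6 h culture 1 (adjusted p = 0.0337).

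Slc39a8 differed by 0.33 ± 0.12 between 24 h and 6 h in QpE cultures (SE; adjusted p = 0.0824) and by -0.13 ± 0.12 in controls (adjusted p = 0.522, limma). Slc39a14 depended on which transcripts were counted. Its locus holds 4 assembled transcripts with no gene name, which averaged 6.85 FPKM over the 30 libraries beside 9.03 FPKM for the named ones. On named transcripts it differed by 0.08 ± 0.18 between 24 h and 6 h in QpE cultures (adjusted p = 0.798). With the unnamed ones added it averaged 14.2 FPKM at 24 h and 21.1 FPKM at 6 h and the difference was -0.54 on the log2 scale (limma, adjusted p = 0.00132).

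Over the 6 groups, Mt2 and Mt1 were highest in QpE cultures at 12 days, and the gap to the next group (2.18 and 1.99 in mean log2) exceeded the SD of either group. Below that, neighbouring groups in the order did not differ beyond their SD for either gene. Mt2 ran on through QpE at 6 h, controls at 6 h, controls at 12 days, QpE at 24 h and controls at 24 h, with mean log2 values of 5.07, 4.88, 4.38, 4.20 and 4.05. For Mt1 the 5 lower groups lay between 6.35 and 6.51.

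Slc30a1 was also highest in QpE cultures at 12 days, at a mean log2 of 2.72, followed by 2.45 in QpE at 6 h, 2.44 in controls at 12 days and 2.37 in controls at 6 h, with the 24 h groups lowest at 2.15 and 2.08. The gap below the first and the gap above the 24 h groups exceeded the SD. For Mtf1, Slc39a14, Slc39a10 and Slc39a8 no step in the order exceeded the SD.

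Against 24 h, 3 members (Mt2, Mt1 and Slc30a1) were higher without overlap in QpE cultures at 12 days, where 12.7% of all genes were. In controls at 12 days against 24 h the same held for Slc30a1 alone, at 4.00 to 4.74 FPKM against 3.01 to 3.63 FPKM, where 9.28% of all genes were. These contrasts share the 12 day libraries with the one that chose the members and are given with no test.

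Among other metal handling genes, 34 of 45 listed passed the filter on low values. The other metallothionein genes, Mt3 and Mt4, did not pass, nor did 8 of 20 other zinc transporter genes. At 12 days 0 of the 12 other zinc transporter genes tested were called between QpE and control (limma), and 2 of them, Slc39a1 and Slc30a7, had an unadjusted p under 0.05. With all 30 libraries in 1 fit both were called lower with QpE (-0.28, adjusted p = 0.00335, and -0.33, adjusted p = 0.00545), where 22.2% of all genes were called. The median log2 difference of the 12 was -0.20, with 4 of 12 above 0, beside 0.00 over all genes. It was -0.23 without QpE culture 5, -0.21 within cultures 3 and 4 and -0.0083 within cultures 1, 2 and 5. The call rate over all genes was 9.13%, of which 3.91% higher, and 3251 genes had an unadjusted p under 0.05.

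Of the 34 genes, 1 was called at 12 days, Slc31a1, which encodes the copper importer CTR1. It stood at 25.8, 22.9, 35.5, 33.4 and 38.97 FPKM in QpE cultures 1 to 5 and at 18.2, 21.01, 23.9, 20.7 and 19.97 FPKM in control cultures 1 to 5, and rose by 0.55 ± 0.15 on the log2 scale (SE; limma, adjusted p = 0.0463). The groups overlapped, in that QpE culture 2 lay below control culture 3. The call was lost without QpE culture 3, 4 or 5 or without any single control culture (adjusted p up to 0.0978), and within cultures 1, 2 and 5 (0.188) or 3 and 4 (0.0697). A pairing by culture number is not established. With culture number as a block, 5 of the 34 were called: Slc31a1, Aco1 and Hmox1 higher and Steap3 and Slc40a1 lower. That is a share near the 13.2% of all genes called in the same fit.

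Between 24 h and 6 h, 9 of the 34 were called in QpE cultures, 5 higher and 4 lower, and 9 in controls, also 5 higher and 4 lower, beside 18.8% and 17.8% of all genes. Among reported targets of the sensor encoded by Mtf1, Csrp1, a LIM domain gene, fell by 2.10 in QpE cultures and by 1.82 in controls on the log2 scale. It averaged 33.4 FPKM at 24 h and 151 FPKM at 6 h with QpE, and 37.7 FPKM at 24 h and 140 FPKM at 6 h in controls. Selenoh, which encodes a selenoprotein, rose by 1.28 in QpE cultures and 0.89 in controls, and Gclc, an enzyme subunit of glutathione synthesis, fell by 0.61 in QpE cultures and by 0.72 in controls. Ndrg1 was called in controls, where it rose by 0.76.

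Of the zinc transporter genes other than the members, Slc39a6 alone was called over that interval, and it fell by 0.34 in QpE cultures and by 0.36 in controls. Hmox1, the heme oxygenase gene, fell by 0.80 in QpE cultures and by 0.75 in controls. The ferrireductase gene Steap4, the ferritin light chain gene Ftl1 and the copper pump gene Atp7a rose in both, by 1.02, 0.48 and 0.44 in QpE cultures and by 1.62, 0.39 and 0.40 in controls. Aco1, an iron-sensing aconitase gene, was called in QpE cultures, where it rose by 0.29. With all 30 libraries in 1 fit the calls of Csrp1 and Selenoh held in QpE cultures and controls, those of Gclc and Steap4 in controls, and the others were lost. Between QpE and control 0 of the 34 were called at 6 h or at 24 h (limma). At an unadjusted p under 0.05 there were 0 of the 34 at 6 h, beside 372 of all 12744 genes. At 24 h there were 7 of the 34 (Aco1, Csrp1, Selenoh, Slc40a1, Sod1, Steap4 and Tfrc), beside 1022 of all 12744 genes.

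Genes whose profile over the 30 libraries lay closest to that of Mt2 or Mt1 were found by the root mean square difference of centred log2(FPKM + 1), over 9197 genes. This is a description in libraries that share their cultures and in which the 12 day groups set much of the likeness. Mt1 and Mt2 differed from each other by 0.55. For Mt2, whose own variation about its mean was 1.32, the closest other genes were Anxa8 at 0.77, an annexin gene, the transcription factor genes Maff at 0.79 and Tead4 at 0.81, the cytokine gene Mif at 0.83 and the kinase gene Pim1 at 0.85. For Mt1, with variation of 0.94, they were Mxi1 at 0.53, a MYC antagonist, Mif at 0.53, the cell cycle inhibitor gene Cdkn1a at 0.57, the mitochondrial enzyme gene Gpd2 at 0.57 and the amino acid transporter gene Slc7a5 at 0.57.

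Anxa8 stood at 224, 214, 185, 145 and 623 FPKM in QpE cultures 1 to 5 at 12 days, with culture 5 highest as for both metallothioneins. In control cultures 1 to 5 it stood at 35.3, 27.6, 32.8, 33.2 and 27.8 FPKM, without the high values of cultures 3 and 4. Mif stood at 250.8, 316, 365, 266 and 447 FPKM in QpE cultures 1 to 5. In control cultures 1 to 5 it stood at 126, 134, 303, 256 and 142 FPKM, with cultures 3 and 4 high as for both metallothioneins.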

How the data were processed

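RNA of 30 cultures in 6 groups of 5 was sequenced as paired reads from directional poly(A) libraries, per the labels' protocols. The authors deposited FPKM per transcript in 1 table, and per the submitters' processing notes HISAT, HISAT2 and StringTie were used with GRCm38; versions, settings and use of strand were not given in the sources used. The table holds 150146 transcripts, 16259 of them assembled with no gene name. Of the deposited FPKM, 11 values just below 0 were set to 0. No count model was applied to FPKM. Depth was estimated from steps between low values, of which 52.1% to 60.2% were whole multiples of the step within 0.1 step, so no interval was drawn from it.

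Named transcripts were summed per gene. Genes with at least 1 FPKM in at least 5 libraries were tested as log2(FPKM + 1), a scale that understates the change of low genes. The test was limma 3.58.1 in R 4.3.3 with a mean-variance trend, fitted on the compared groups alone, two-sided, with Benjamini-Hochberg adjustment over 12744 genes and a threshold of 0.05. On simulated data with 200 changed genes, false calls were 8.33%, 9.30% and 6.44% of calls in the QpE comparisons at 12 days, 24 h and 6 h, above the nominal rate, and changes of 1.5-fold were recovered in 23.5%, 52.9% and 49.5% and of 4-fold in 94.5%, 95.6% and 96.3%. The simulation drew each gene on its own, with no shift shared between genes of a culture. At 12 days 1164 genes were called and certain cultures stood apart, so the simulated rates need not hold for that comparison. The members, gene lists and tests were chosen with earlier results of these data known. Named genes were the 7 members, listed metal handling genes called in a tested comparison (at most 12 each, by adjusted p) and the 5 genes closest to each of Mt1 and Mt2; others were named after their values were seen. Positions are those of GENCODE vM21 on GRCm38, where 130890 of 133390 shared transcripts matched in position.

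To check whether culture numbers pair libraries, deviations from group means were correlated. Between QpE and control libraries of a number at 12 days r was 0.154 to 0.315, all above the bound of 0.1. Only 2 of 5 correlated best with their own number, and the labels name no shared day or batch, so a pairing is not established. The main test at 12 days had no block by culture number, and a fit with that block was run as another setting. In the other comparisons some pairs fell below the bound (lowest r 0.027 between arms at 6 h, 0.02 at 24 h, 0.017 between 24 h and 6 h with QpE and -0.063 in controls).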

Additional observations from a re-analysis of the deposited data

Results flagged for a closer look

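In the 42 groups of 5 values checked (7 genes in 6 groups), 2 held a sample far from the others on the log2(FPKM + 1) scale, and by chance about 1 in 20 groups would. The first is Mt2 in control culture 4 at 6 h, at 66.7 FPKM, where the gap to the next control (26.4 FPKM) was 0.739 of the whole range on that scale and 0.843 in FPKM. The second is Mt1 in QpE culture 3 at 6 h, at 144 FPKM, where the gap to the next QpE culture (87.4 FPKM) was 0.793 of the range on that scale and 0.841 in FPKM. The other metallothionein gene was also highest in each of these 6 h libraries, at 146 FPKM for Mt1 in control culture 4 and 56.8 FPKM for Mt2 in QpE culture 3. Both libraries belong to cultures 3 and 4, which had the lowest fibroblast marker sums of their groups at 6 h, and the part of this was not tested. Control culture 4 was the highest control for both genes at 24 h as well. In FPKM 4 groups held such a sample, the further ones being QpE cultures at 12 days, where culture 5 stood apart for Mt2 (563.9 FPKM, 0.816 of the range) and Mt1 (884 FPKM, 0.768).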

How the results depend on the processing

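No member was called for QpE at 6 h or 24 h under any setting. All genes called at 6 h, against 0, numbered 2 with the most abundant transcript, 1 with assembled transcripts joined, 2 with cultures 1, 2 and 5 and 0 to 3 leaving out a culture. At 24 h, against 1, they numbered 0 with a pseudocount of 0.1, joined transcripts, all 30 libraries, the replicate block or cultures 3 and 4, 2 with the most abundant transcript, 3 with cultures 1, 2 and 5 and 0 to 3 leaving out a culture.

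For 24 h against 6 h in controls 1 member was called, against 0, with joined transcripts or all 30 libraries (Slc30a1 in both) or the replicate block (Mt2, adjusted p = 0.0145), and 0 to 1 leaving out a culture. All genes called, against 2266, were 1496 with the most abundant transcript, 779 with cultures 1, 2 and 5, 284 with cultures 3 and 4 and 1662 to 2307 leaving out a culture. In the fits that called 1 member they were 3288 with joined transcripts, 1619 with all 30 libraries and 1727 with the replicate block. Nothing is read from that 1 member. In QpE cultures, against 1, members called were 2 with TPM or median-ratio scaling, 3 with joined transcripts, 0 with cultures 3 and 4 and 1 to 2 leaving out a culture. All genes, against 2396, were 1554, 815 and 199 with the most abundant transcript, cultures 1, 2 and 5 and cultures 3 and 4, and 1801 to 2361 leaving out a culture. They were 2418 of 14958 tested with TPM scaling and 2425 of 12734 with median-ratio scaling. With joined transcripts, where loci with no gene name also entered the fit, they were 3473. The numbers do not pair the libraries in these comparisons.

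For QpE at 12 days, other metal genes called, against 1, were 0 with a pseudocount of 0.1, no filter, TPM scaling, the most abundant transcript or either culture set, 3 with joined transcripts, 5 with all 30 libraries, 5 with the replicate block and 0 to 1 leaving out a culture. All genes, against 1164, were 592 with no filter, 640 with the most abundant transcript, 1787 joined, 2828 with all 30 libraries, 99 with cultures 1, 2 and 5, 100 with cultures 3 and 4 and 337 to 1032 leaving out a culture, where they fell by over 1.5 times without QpE culture 3 or any single control. All genes called with the replicate block were 1688. Member differences moved by over 1 SD with cultures 3 and 4 (Mt2 1.23, Mt1 0.75, Slc30a1 0.15) and the most abundant transcript (Mtf1 -0.80).

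Signs turned for uncalled members. At 6 h these were Mt1 (-0.10) and Slc30a1 (-0.0091) with cultures 3 and 4, Mtf1 (0.76) and Slc39a14 (0.0168) with the most abundant transcript, and Slc39a14 joined (0.20) and with cultures 3 and 4 (0.59). At 24 h Mtf1 turned with the most abundant transcript (0.81) and cultures 3 and 4 (0.16). For 24 h against 6 h in controls, Mt1 (0.13) and Slc39a14 (0.11) turned with the most abundant transcript, Mt1 (0.24) and Mtf1 (0.0834) with cultures 1, 2 and 5 and Mtf1 with median-ratio scaling (0.0113). In QpE cultures, Mt1 turned with cultures 1, 2 and 5 (0.17), Mtf1 with cultures 3 and 4 (0.14), and Slc39a14 with TPM scaling (-0.0099), cultures 3 and 4 (-0.46) and joined transcripts (-0.54, called). Leaving out a culture, signs turned at 6 h for Mt2 (-0.0064 to 0.49), Mt1 (-0.0345 to 0.34), Mtf1 (-0.16 to 0.0001), Slc39a14 (-0.15 to 0.12) and Slc39a10 (-0.16 to 0.0269), at 24 h for Mtf1 (-0.15 to 0.0113) and Slc39a14 (-0.0054 to 0.35), over time in controls for Mt1 (-0.14 to 0.19), Mtf1 (-0.0732 to 0.0902) and Slc39a14 (-0.31 to 0.0535), and over time with QpE for Mt1 (-0.0686 to 0.16), Mtf1 (-0.0715 to 0.098) and Slc39a14 (-0.0094 to 0.20). Causes were not tested.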
